A study of Homo sapiens with 3 samples.

Results

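Crosslinked RNA from 5 small noncoding RNA genes is described here: the spliceosomal small nuclear RNA (snRNA) genes RNU2-2, RNU12 and RNU6-9, and the small nucleolar RNA (snoRNA) genes SNORD3A and SNORD118, which encode the U3 and U8 RNAs. They were chosen from 7171 annotated genes with a peak in at least 1 replicate, because earlier results of the same lists showed strong peaks there, so their presence in the lists and their read numbers are a description and not a finding. Every deposited peak that overlapped one of the 5 gene intervals by 1 bp or more on the strand of the gene was taken, which gave 37 of 50800 deposited lines, with 10, 14 and 13 in replicates 1, 2 and 3. All 5 genes had a peak in all 3 replicates, as the choice implies. That holds for 5.75% of the 59679 nuclear genes of the annotation table, and for 0.947% of the 10670 genes of at most 500 bp.

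Crosslinking was mapped by easyCLIP in 3 replicates: UV light bonds a protein to the RNA it touches, and the RNA is then pulled down with the protein, trimmed and sequenced. HEK293T cells, a wild-type line from human embryonic kidney, had received 750 ng of an expression vector encoding HNRNPA0 with an HA tag. They were irradiated at 254 nm with 0.3 J per cm², and the tagged protein was captured with anti-HA beads. RNase was used at 0.02 U per µL, and reads were 150 bp long. HNRNPA0 belongs to the hnRNP A/B family of RNA-binding proteins, the tagged copy was made from a vector, and the study concerned RNA G-quadruplexes, structures of guanine-rich RNA, and the proteins that bind them. The replicates form 1 group with no second condition and no control library used here, and whether they came from separate cultures is not stated, so their spread may be technical.

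The replicate lists held 15661, 15486 and 17791 distinct peaks, and the read numbers of peaks outside the mitochondrial genome summed to 100038, 99141 and 114203. The read number is the whole number that closes the name of each deposited peak and is read here as the reads in that peak. Neighbouring or overlapping peaks can hold the same reads, so the highest read number of a gene is the level used below, and a sum over peaks is given once per gene. Neither RNA abundance nor reads outside peaks were measured in these files, and binding cannot be told apart from abundance.

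Spliceosomal snRNAs are the RNA cores of the particles that remove introns. U2 pairs with the branch site of the major class of introns, and U12 takes that place in the minor class. U6 pairs with the 5′ splice site and with U2 and forms the catalytic centre, and unlike the other spliceosomal RNAs apart from its minor-class counterpart it is made by RNA polymerase III. U3 and U8 are box C/D snoRNAs of the nucleolus that act in the cleavage of precursor ribosomal RNA rather than as methylation guides. U3 is needed for the small-subunit RNA and U8 for the RNAs of the large subunit.

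RNU2-2, a gene for U2, is 191 bp long and occupies 62841619 to 62841809 of chromosome 11 (hg38), on the minus strand. Its interval falls at the 5′ end of that of the protein-coding gene WDR74, which has a role in ribosome assembly. The highest read numbers were 74, 75 and 85 in replicates 1, 2 and 3, a mean of 78.0 ± 6.08 (SD, n = 3). Replicate 3 was the highest, and all 3 values lay close together. Peaks spanned nucleotides 22 to 167 counted from the 5′ end of the gene, and the stretch from 26 to 159, which is 70.2% of the gene, was covered in every replicate. The first 21 and the last 24 nucleotides held no peak in any replicate.

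The highest peak on U2 was marked in the middle of the RNA in every replicate. Each deposited line singles out a few nucleotides of its peak, called the mark here, and in the highest peak of RNU2-2 it lay at nucleotides 101 to 104, 100 to 103 and 104 to 107 in replicates 1, 2 and 3. The mark of the highest peak therefore moved by 4 nucleotides at most between replicates. An overlapping peak with a slightly lower read number was marked 3, 9 and 5 nucleotides away from it in replicates 1, 2 and 3. In replicates 2 and 3 the 3′ side was listed as separate peaks. Their read numbers were 15 and 18 in replicate 2 and 20 in replicate 3, below the 75 and 85 of the central peaks. These 3′ peaks were also narrower, at 17, 12 and 33 nt against 108 and 109 nt. Read numbers of peaks of such unlike width do not give a signal per nucleotide, so the 3′ side was not ranked against the centre. In replicate 1 the RNA was divided elsewhere, into a 5′ peak from nucleotide 22 to 72 with a read number of 63 and a peak from 73 to 160 with 74. The summed read number over all peaks of RNU2-2 was 191 ± 14.0 (SD, n = 3).

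RNU12, the gene for U12, lies on the plus strand of chromosome 22 from 42615244 to 42615393 (hg38), is 150 bp long and lies in no other interval of the annotation table. Its highest read numbers were 67, 74 and 65 in replicates 1, 2 and 3, a mean of 68.7 ± 4.73 (SD, n = 3). The values overlap those of RNU2-2. Peaks began at nucleotide 14 or 15 in every replicate, and nucleotides 15 to 117 were covered in all 3, which is 68.7% of the gene. The replicates differed at the 3′ end, where replicate 1 stopped at nucleotide 118, replicate 2 had a further peak of 4 nucleotides from 124 to 127 with a read number of 15, and replicate 3 ran on to nucleotide 148 with a last peak of 19. The mark of the highest peak lay at nucleotides 90 to 93, 92 to 95 and 94 to 97 in replicates 1, 2 and 3, again within 4 nucleotides. In replicates 1 and 2 another peak was equally high, at 67 and 74, and was marked at 88 to 91 and 91 to 94. The marks given are those of the peaks with the lower p-value. The summed read number was 192 ± 42.6 (SD, n = 3).

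RNU6-9, a gene for U6, lies on the plus strand of chromosome 19 from 893484 to 893590 (hg38), is 107 bp long and lies in no other interval of the table. Its highest read numbers were 66, 72 and 25 in replicates 1, 2 and 3, a mean of 54.3 ± 25.6 (SD, n = 3). Replicate 3 was far below the other replicates, which the remaining 4 genes did not show. The position was nonetheless alike, with peaks from nucleotide 28 to 88 in replicate 1, 27 to 91 in replicate 2 and 31 to 86 in replicate 3. The part covered in every replicate was 56 nucleotides, or 52.3% of the gene, the smallest share among the 5.

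The mark on U6 lay at nucleotides 42 to 45 in replicate 1 and at 45 to 48 in replicates 2 and 3. Replicate 2 was divided at nucleotide 55 into a pair of touching peaks with the same read number, 72, and the mark given is that of the peak with the lower p-value, since the other peak was marked at 62 to 65. The first 26 and the last 16 nucleotides of RNU6-9 held no peak in any replicate. The summed read number was 78.3 ± 60.5 (SD, n = 3) and fell to 45.5 without replicate 2, whose divided peak enters the sum at both of its parts.

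SNORD3A, a gene for U3, lies on the plus strand of chromosome 17 from 19188016 to 19188232 (hg38), is 217 bp long and lies in no other interval of the table. It had the highest read numbers of the 5 genes, with 146, 139 and 152 in replicates 1, 2 and 3, a mean of 146 ± 6.51 (SD, n = 3). No value of another of the 5 genes reached them. Nucleotides 30 to 180 were covered in every replicate, or 69.6% of the gene, and the first 26 and last 16 nucleotides held no peak. In replicates 1 and 2 the RNA carried a single peak of 154 and 159 nt, while in replicate 3 it was divided at nucleotide 142 into a 5′ peak of 152 and a 3′ peak of 90. The mark lay at nucleotides 76 to 79, 90 to 93 and 80 to 83, a wider range than on RNU2-2, RNU12 and SNORD118. The summed read number was 176 ± 57.6 (SD, n = 3).

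SNORD118, the gene for U8, is 137 bp long and occupies 8173452 to 8173588 of chromosome 17 (hg38), on the minus strand. It falls inside the interval of the protein-coding gene TMEM107, which encodes a membrane protein of the primary cilium. Its highest read numbers were 107, 102 and 111 in replicates 1, 2 and 3, a mean of 107 ± 4.51 (SD, n = 3). All 3 lay above the values of RNU2-2, RNU12 and RNU6-9 and below those of SNORD3A. U8 was covered nearly from end to end, with nucleotides 8 to 126 in a peak in every replicate, or 86.9% of the gene, and only the first 4 and last 2 nucleotides in none. Its highest peak was marked at nucleotides 61 to 64, 60 to 63 and 66 to 69 in replicates 1, 2 and 3. The 3′ side was listed apart in replicate 2 from nucleotide 116 to 135 with a read number of 24, and in replicate 3 from 94 to 126 with 77. The summed read number was 264 ± 88.4 (SD, n = 3).

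**Figure D1:**
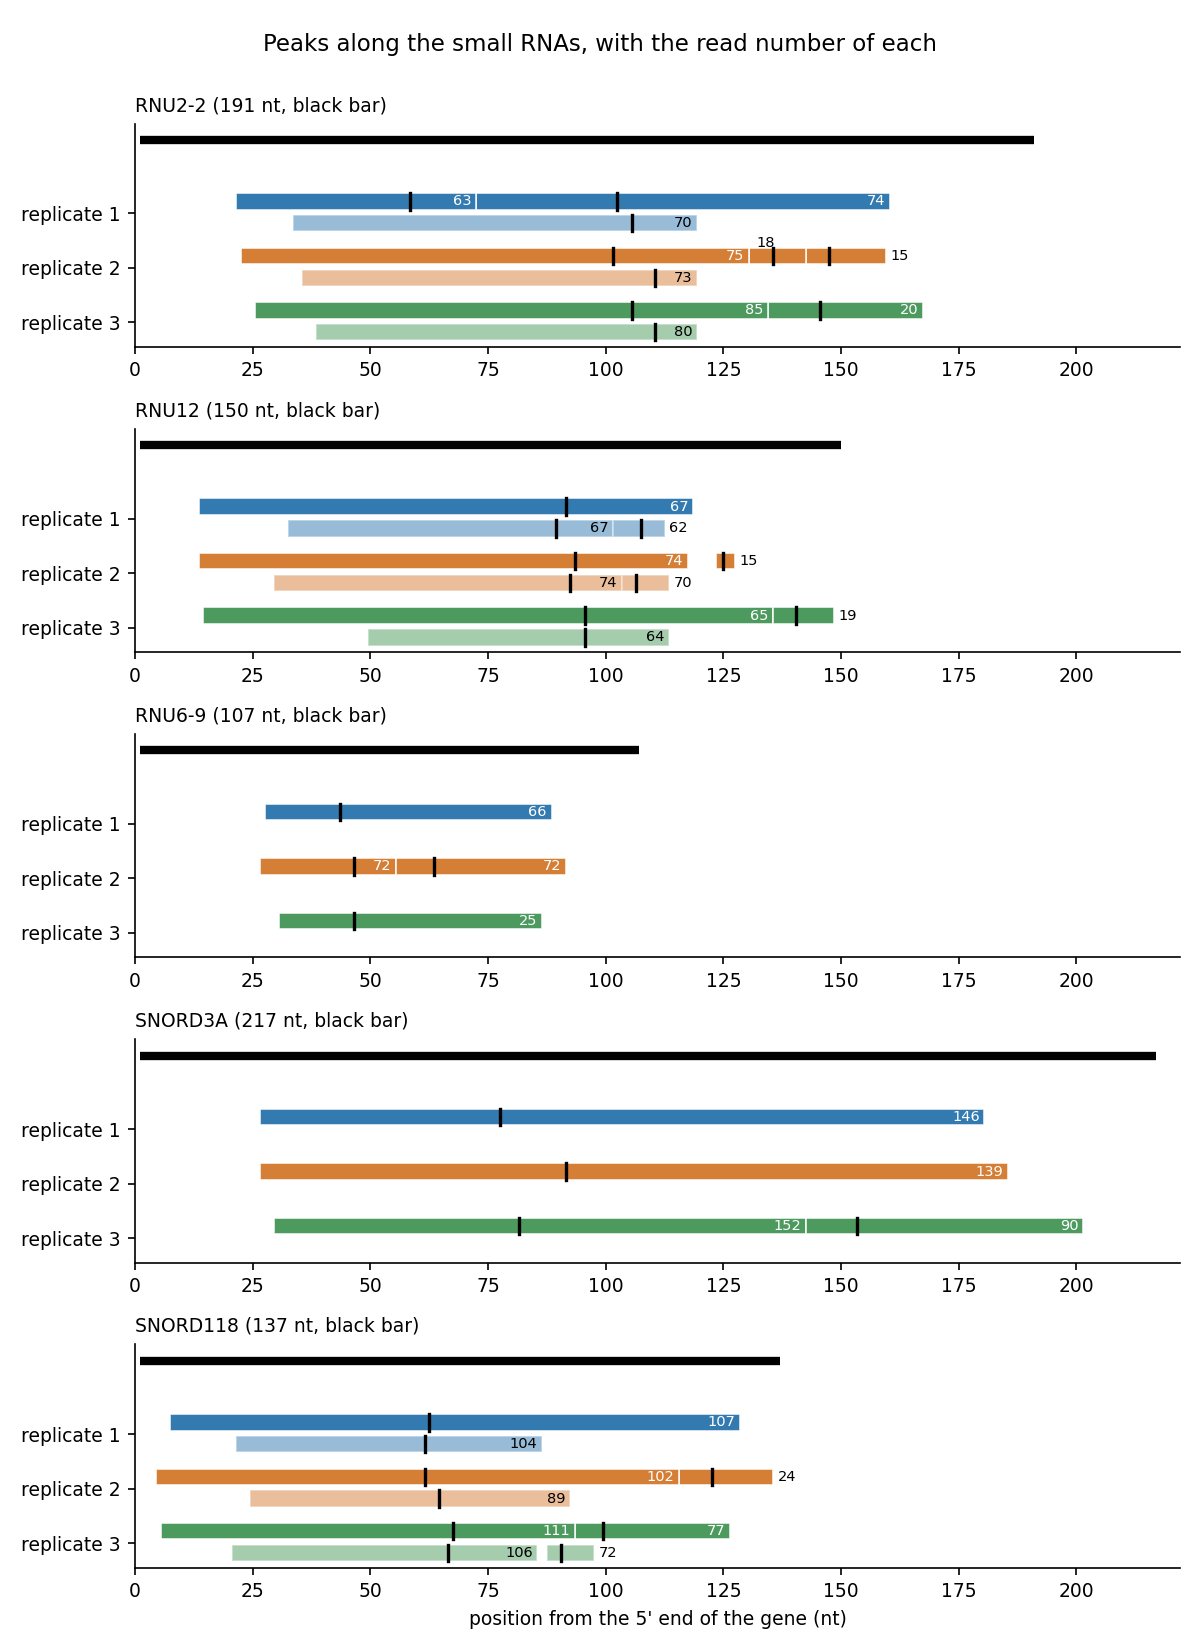
Peaks along the 5 RNAs, with position in nucleotides from the 5′ end of the gene on the horizontal axis and the 3 replicates as rows; each bar is a deposited peak with its read number, the black tick is the mark inside it, and pale bars are the second gene ID of RNAs listed under 2. The marks of the highest peaks lie within 14 nucleotides of each other on RNU2-2, RNU12, SNORD3A and SNORD118, and on RNU6-9 the equally high second peak of replicate 2 is marked 20 nucleotides from the mark of replicate 1; the outermost nucleotides of both ends lie in no peak.

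On all 5 RNAs the peaks stayed inside the annotated RNA. No deposited line on either strand lay within 1000 nt outside any of the 5 intervals without also overlapping it, no line was on the strand opposite to the peaks, and no peak ran past an annotated end. The host genes showed nothing beyond the small RNA. The 8714 nt of WDR74 outside RNU2-2 and the 3787 nt of TMEM107 outside SNORD118 held 0 peaks in each of the 3 replicates. RNU2-2 is 2.14% of the WDR74 interval and SNORD118 is 3.49% of that of TMEM107. The lists hold peaks and not all reads, so weaker coverage of the hosts cannot be seen in them.

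The marks were also set against those of other regions. Across the 2337 nuclear regions with a peak in all 3 replicates, the mark of the highest peak moved between replicates by a median of 23 nucleotides. Among the 51 other regions with a mean highest read number in the range of the 5 genes, the median was 12, with quartiles of 7 and 23. The mark moved by 3 nucleotides on RNU6-9, 4 on RNU2-2, 4 on RNU12, 6 on SNORD118 and 14 on SNORD3A. Of those 51 regions, 45 moved further than RNU6-9, 44 further than RNU2-2 and RNU12, 41 further than SNORD118 and 23 further than SNORD3A. The value for RNU6-9 depends on which of the equally highest peaks of replicate 2 is taken. With the other, a choice tried after the data were seen, its mark moved by 20 nucleotides and 15 of the 51 regions moved further. RNU12 had equally highest peaks in replicates 1 and 2 as well, so its 4 nucleotides and its count of 44 also rest on the choice by p-value. That count was not made again with its other peaks. Widths differ between regions, and no test was attached to these counts.

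Per length, U8 and U3 carried the most and U2 the least of the 5 RNAs. The highest read number per 100 nt of gene averaged 77.9 ± 3.29 for SNORD118, 67.1 ± 3.00 for SNORD3A, 50.8 ± 23.9 for RNU6-9, 45.8 ± 3.15 for RNU12 and 40.8 ± 3.18 for RNU2-2 (SD, n = 3 each). SNORD118 stood above SNORD3A in every replicate, with a lowest value of 74.5 against a highest of 70.0 per 100 nt. The neighbours further down the order overlapped, since RNU6-9 reached 67.3 in replicate 2 and 23.4 in replicate 3, and RNU12 at its lowest, 43.3, lay under the highest value of RNU2-2, 44.5. The genes were chosen for their read numbers, so the order is a description. By mean highest read number, not per length, the regions ranked 24 for SNORD3A, 39 for SNORD118, 50 for RNU2-2, 59 for RNU12 and 79 for RNU6-9 among the 2337 nuclear regions. Together the 5 genes span 802 bp and held 0.864% ± 0.0496 of the summed nuclear read number (SD, n = 3), or 0.486% ± 0.051 with each run of touching or overlapping peaks counted once at its highest peak.

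Of the 5 RNAs, U2, U12 and U8 appeared under 2 gene IDs each, and the deposited p-value of the highest peak differed between the IDs. The files do not pair the IDs with names. RNU2-2 was listed under ENSG00000133316.15 and ENSG00000222328.1, RNU12 under ENSG00000270022.3 and ENSG00000276027.1, and SNORD118 under ENSG00000179029.14 and ENSG00000200463.1. In replicate 1 the highest peak on U8 had a read number of 107 and a p-value of 1.01e-99 under the first ID, and 104 and 2.76e-11 under the second. On U2 in the same replicate the values were 74 and 2.88e-92 under the first ID, against 70 and 3.16e-09 under the second. On U12 both IDs gave a read number of 67, with p-values of 1.35e-29 and 1.41e-08.

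Over the 9 pairs of listings, read numbers differed by 0 to 13, at most 12.7% of the higher one, while −log10 of the p-value differed by 16.3 to 103. The marks of the paired peaks lay 0 to 9 nucleotides apart. A rank by the p-value of the highest peak would thus place the same U8, U2 or U12 signal far apart according to the ID. Other peaks under an ID could differ widely too. Under its second ID, U12 also had a peak of 62 in replicate 1 at 1.56e-40 and of 70 in replicate 2 at 1.65e-48. Both p-values were lower than the 1.35e-29 and 7.01e-33 of the highest peaks under the first ID. Under the second ID of U8 in replicate 3, peaks of 106 and 72 had p-values of 1.79e-11 and 4.89e-39. RNU6-9 and SNORD3A had 1 ID each, ENSG00000207507.1 and ENSG00000263934.4. With 66 reads in replicate 1, RNU6-9 had a p-value of 1.57e-05, although RNU12 with 67 had 1.35e-29 under its first ID. These p-values are the authors' own and are not compared between IDs as evidence of strength.

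**Figure D2:**
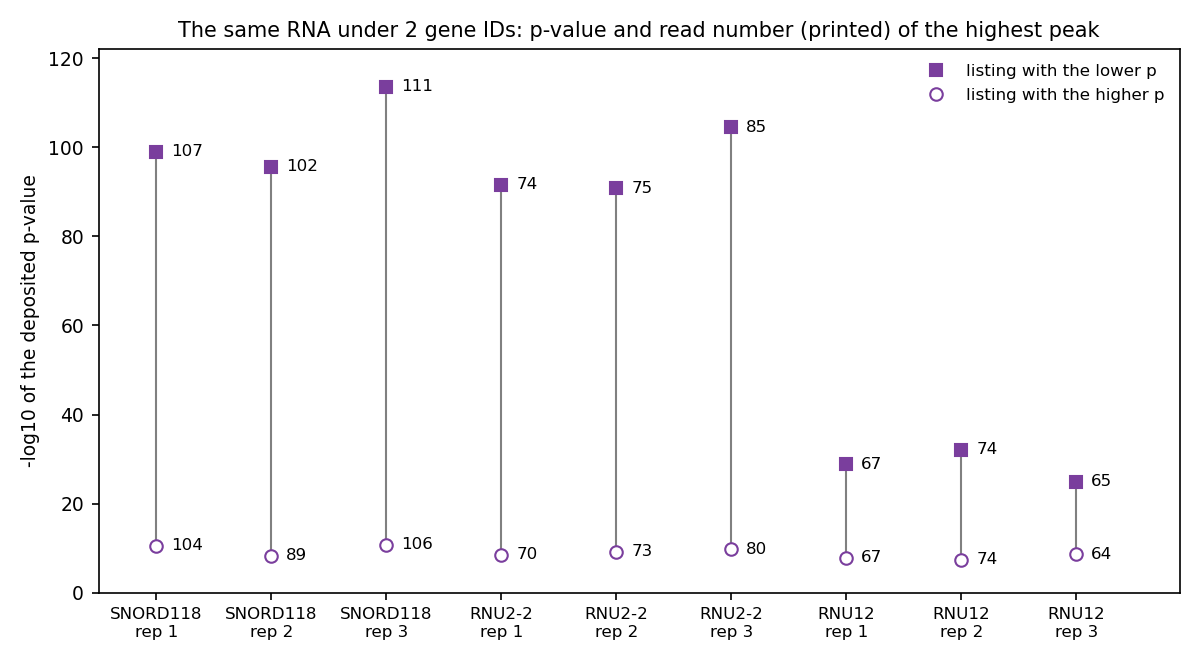
Deposited p-values, as −log10 on the vertical axis, of the highest peak on U8, U2 and U12 in each replicate under the 2 gene IDs that list it; squares are the listing with the lower p-value, circles the other, and the printed numbers are read numbers. Read numbers of a pair differ by 13 at most, while the p-values of SNORD118 and RNU2-2 differ by 81.5 or more on the −log10 scale. Other peaks under an ID are not drawn, and on U12 some of them have lower p-values than the squares.

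By highest read number, replicates agreed closely on U2, U12, U3 and U8, and U6 was the exception. The coefficient of variation of the highest read number was 4.23% for SNORD118, 4.47% for SNORD3A, 6.88% for RNU12 and 7.80% for RNU2-2, against 47.1% for RNU6-9. The 51 other regions of like read number had a median of 20.9%. Scaled to the summed nuclear read number, the coefficient was 1.16% for RNU2-2, 4.61% for SNORD3A, 4.79% for SNORD118, 13.4% for RNU12 and 51.5% for RNU6-9. Sums over peaks spread more on U12, U3 and U8, at 192 ± 42.6 for RNU12, 176 ± 57.6 for SNORD3A and 264 ± 88.4 for SNORD118 (SD, n = 3 each). The sum for RNU2-2 was 191 ± 14.0. The highest read number of RNU6-9 in replicate 3 was 0.362 times the mean of replicates 1 and 2, a log2 ratio of -1.46. The same log2 ratio was 0.19 for RNU2-2, 0.09 for SNORD3A, 0.09 for SNORD118 and -0.12 for RNU12. Over the 2337 regions the median was 0, with quartiles of -0.42 and 0.36, and 1.28% of regions lay lower than RNU6-9.

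The library totals differed too. The summed nuclear read number in peaks was 114203 in replicate 3, which is 1.15 times the mean of replicates 1 and 2, while the sum with mitochondrial peaks included was 268608, 268445 and 221013 in replicates 1, 2 and 3. Of the 51 regions of like read number, 1 fell further in replicate 3 than RNU6-9. Per 1000 of the summed nuclear read number, RNU6-9 stood at 0.660, 0.726 and 0.219 in replicates 1, 2 and 3, while RNU2-2 stood at 0.740, 0.756 and 0.744. The difference on U6 was picked out after its values were seen and rests on 1 library, and its cause was not tested.

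**Figure D3:**
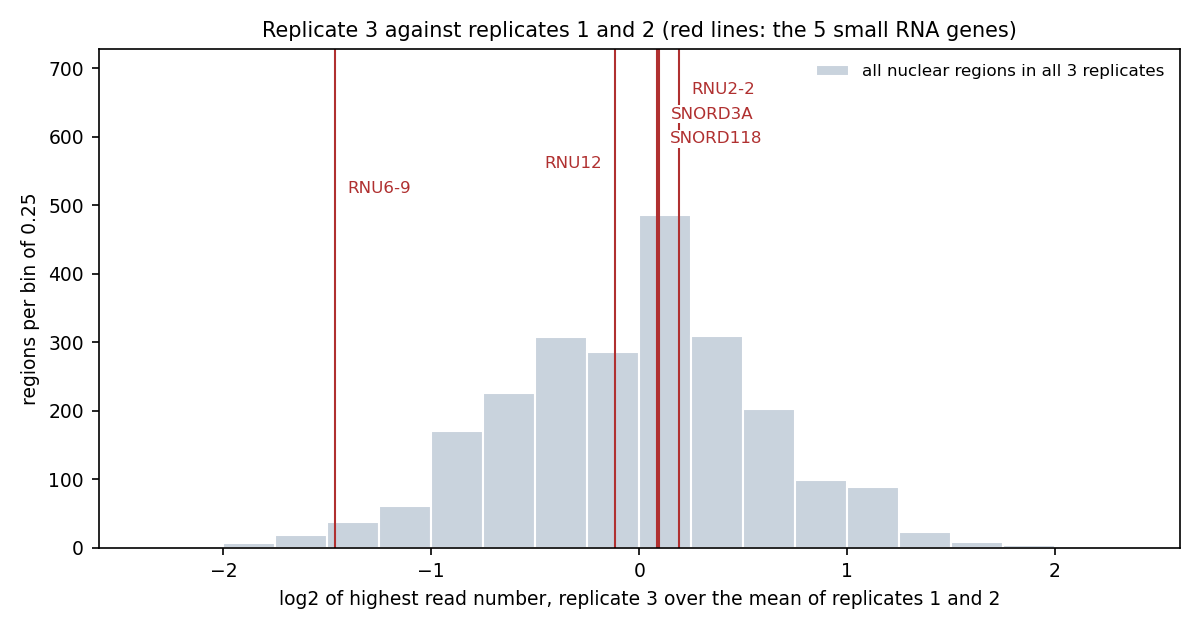
Highest read number in replicate 3 over the mean of replicates 1 and 2, on a log2 scale, for all 2337 nuclear regions with a peak in every replicate (bars, regions per bin); red lines mark the 5 small RNA genes. RNU6-9 lies at -1.46 in the lower tail, and the other 4 lie between -0.12 and 0.19.

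Most related small RNA genes held no peak. A list of 37 related genes, covering U1, U2, U4, U5, U6, U7 and U11, the minor-class U4atac and U6atac, the further U3 copies and 4 snoRNAs, had 7 with a peak in all 3 replicates, which is 18.9%. With each list reduced to the 50% of peaks with the lowest p-values, 2 of these 7 remained, SNORD14B and SNORD22. Their mean highest read numbers were 6.33 and 7.33. RNU5E-1 and SNORD13 were lost at 14.7 and 8, and RNU6ATAC, SNORD3B-1 and RNU4ATAC at 6.67, 6 and 4. The genes kept were thus not those with the highest read numbers. In the full lists the shares with a peak in all 3 replicates were 4.55% of 154 snRNA genes and 4.92% of 1199 snoRNA genes in the table. The first includes RNU2-2, RNU12 and RNU6-9 and the second SNORD3A and SNORD118. A further 5 of the 37 had a peak in 1 replicate and 25 in none. The annotation table gives no strand, so either strand was accepted for these genes, and each had peaks on 1 strand.

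The 7 genes were far weaker than the 5 above. RNU5E-1, a gene for U5, which aligns the exons at the catalytic centre, was the strongest with read numbers of 9, 16 and 19 in replicates 1, 2 and 3. RNU6ATAC, the minor-class counterpart of U6, had 6, 7 and 7, and RNU4ATAC, its pairing partner, had 4, 3 and 5. Of the U3 copies only SNORD3B-1 had a peak in all 3, with 4, 7 and 7, while SNORD3C had a read number of 4 in replicate 2 alone. Among the snoRNAs, SNORD22 had 6, 8 and 8, SNORD14B had 7, 5 and 7, and SNORD13, which acts on small-subunit ribosomal RNA, had 14, 5 and 5. Per 100 nt of gene, single replicates of the 5 genes ranged from 23.4 to 81.0 and those of the 7 from 1.84 to 15.7, and the ranges did not overlap. The 5 genes were chosen for strong peaks in these same lists and the 7 were not, so the gap is a description and not a finding.

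**Figure D4:**
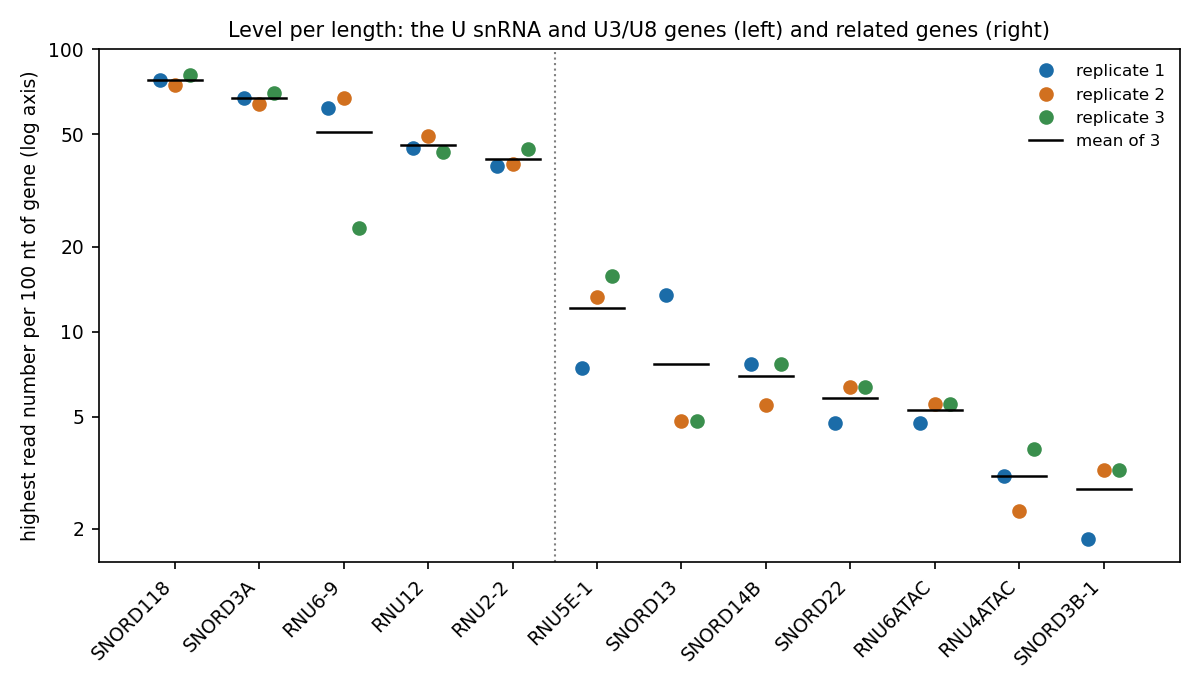
Highest read number per 100 nt of gene, on a log axis, in each replicate (points) with the mean of 3 (line), for the 5 U snRNA and U3/U8 genes on the left and the 7 related genes with a peak in every replicate on the right. All points on the left lie at 23.4 or more and all on the right at 15.7 or less. The 5 genes on the left were chosen for strong peaks in these lists.

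The other copies of U6, U2 and U3 held few peaks or none. Of 1281 other U6 genes and pseudogenes in the table, 2 pseudogenes, RNU6-4P and RNU6-16P, had any peak, with a highest read number of 5, and RNU6-1, RNU6-2, RNU6-7 and RNU6-8 had none. Of 70 other U2 genes and pseudogenes, RNU2-1 included, none had a peak, and of 144 U1 genes, variants and pseudogenes none did either. Of 91 U4 genes and pseudogenes none had one. Of 14 other U3 genes and pseudogenes SNORD3B-1 and SNORD3C had a peak. The U5 family had a peak in at least 1 replicate on 6 of its 34 genes and pseudogenes, with a highest read number of 19, in RNU5E-1. Copies of U6 and of U3 are near-identical and those of U2 closely alike, and the aligner and its rule for reads that match several places are not given in the sources used here. Which copy the U6, U3 and U2 reads came from is therefore uncertain, and a count of 0 at a copy does not show that its RNA was not crosslinked.

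The genes nearest to these 5 in read number were sought among short genes alone. Likeness was the distance between log2 highest read numbers over the 3 replicates, among 96 other genes of at most 500 bp with a peak in every replicate, and is not per length. Nearest to RNU2-2 was RMRP, the RNA of the mitochondrial-RNA-processing ribonuclease, with 83, 77 and 75 and a distance of 0.25. Nearest to RNU12 was the vault RNA gene VTRNA1-2 with 57, 69 and 73, at 0.30, and nearest to SNORD3A was RN7SK, the RNA that holds the elongation factor P-TEFb inactive, with 134, 141 and 181, at 0.28. SNORD118 and RNU6-9 had no such close neighbour, with RMRP at 0.79 from the first and the tyrosine transfer RNA gene TRY-GTA5-1, with 49, 50 and 40, at 0.96 from the second. The next-nearest genes were RMRP, VTRNA1-2 and the tyrosine transfer RNA gene TRY-GTA2-1 for the U2 and U12 genes, the selenocysteine transfer RNA gene TRU-TCA1-1 and RMRP for SNORD3A, RN7SK and TRY-GTA2-1 for SNORD118, and SNORD65 and RPPH1, the RNA of ribonuclease P, for RNU6-9.

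SNORD3A and SNORD118 stood above every other snoRNA gene of at most 500 bp with a peak in all 3 replicates. The highest of those others by mean read number, SNORD65, averaged 59.0 and their median was 7.67. Per 100 nt of gene SNORD65 averaged 80.8, above the 77.9 of SNORD118 and the 67.1 of SNORD3A, so the order of the snoRNAs depends on length. SNORD3A and SNORD118 were chosen for strong peaks in these lists, so their place by read number is a description.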

How the data were processed

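The authors deposited 1 peak list per replicate. Per the submitters' processing notes the build was hg38, and bedtools and deepTools were named with no version or role. Which aligner and peak caller were run, and whether molecular identifiers were used, is not given in the sources used here. In the deposited lists a line holds a p-value from the authors' peak caller, all under 0.05, and a name ending in a whole number of 3 or more, read here as reads and not named in the files.

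Lines of 1 replicate with the same interval and strand were counted once. Gene intervals came from the RefSeq table of GRCh38, which has no strand; all lines on each of the 5 intervals lay on 1 strand, taken as that of the gene. Regions were peaks of the 3 lists merged at an overlap of 1 bp or more. Values are given per replicate with mean and SD, without tests, since there is 1 group and the genes were chosen from these values. The genes and lists were chosen with earlier results of these data known. Named genes were the 5 genes, the related genes with a peak in all 3 replicates, and the 3 genes nearest to each of the 5 in read number. Sequences of these RNAs were not used here, so the planned motif counts were not made. Analyses ran in Python 3.11.15 with pandas 2.3.3, and overlap steps were tested on planted peaks, where 4 of 4 checks were recovered. Only reads in peaks are known, so depth outside them is unknown, and read numbers carry no counting interval because neighbouring peaks can share reads.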

Additional observations from a re-analysis of the deposited data

How the results depend on the processing

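Of 72 values recomputed under the alternatives, 66 stayed within 1 SD, or for counts within 1.5 times. Many of these 66 could not have moved. Leaving out 1 of 3 replicates cannot shift a mean by as much as the SD of the 3. No peak crossed an annotated end or lay just outside, so other overlap rules or a wider interval could not change the sums of the 5 genes. Counting each run of touching or overlapping peaks once at its highest peak gave mean summed read numbers of 78.0 for RNU2-2, 73.7 for RNU12 and 107 for SNORD118, and a share of 0.486% for the 5 genes, since shared reads then enter once. With each list reduced to the 50% of peaks with the lowest p-values, the share was 1.15% and 2 of the 37 related genes had a peak in all 3 replicates, as fewer peaks were kept. With each replicate left out, the summed read number ranged from 183 to 196 for RNU2-2, 172 to 214.5 for RNU12, 45.5 to 105 for RNU6-9, 142.5 to 194 for SNORD3A and 213 to 290.5 for SNORD118, and the share from 0.836% to 0.883%. The mark of RNU6-9 moved by 3 nucleotides, or by 20 with the other of its equally high peaks, an alternative chosen after seeing the data. All 5 genes and the 7 related genes kept their peaks with each replicate left out, which having a peak in all 3 replicates makes certain. The count of related genes could only have risen, and it stayed at 7. No paired analysis was possible because the replicates form 1 group. Low read numbers limit the related genes, where 3 is the lowest number listed.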
